A study of Rattus norvegicus with 12 samples.

Results

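Double-stranded RNA is read in the cytoplasm and in endosomes by a small set of sensors, and 8 genes of this system are described here: the sensors Ifih1, Dhx58, Tlr3 and Zbp1, the adaptor Mavs, the kinases Tbk1 and Eif2ak2, and the editing enzyme Adar. They were chosen by symbol among the 34034 gene symbols of the count table, and all 8 were found. A filter on low counts, CPM (counts scaled to a common library size) above 1 in at least 2 libraries, kept 14324 genes and 7 of the 8, and Tlr3 did not pass it. Zbp1 passed only through the libraries in which it was high, so its difference between groups was partly fixed by the filter.

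The cells were INS-1E, a wild-type clonal rat insulinoma line that secretes insulin and stands in for the pancreatic β cell. The 12 bulk RNA-seq libraries formed 4 groups of 3 biological replicates. Untreated cells received no cytokine, and IL-1βlow cells were preconditioned with IL-1β at 10 pg/ml for 72 h. CYT cells were challenged with IL-1β at 100 pg/ml and IFN-γ at 5 ng/ml for 16 h. IL-1βlow + CYT cells were preconditioned first and then given the same challenge. Every group is the same transformed line in culture, so no islet, immune or other cell type was present by design. The comparisons ask how a challenge with cytokines changed the transcripts of the double-stranded RNA system and whether preconditioning altered that change.

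Double-stranded RNA, a usual product of virus replication, is bound by the helicases MDA5 (the product of Ifih1), which reads long stretches of it, and RIG-I, which reads its ends. Both then act through MAVS on the outer membrane of mitochondria. MAVS leads to activation of TBK1 and its relative IKKε, which phosphorylate the transcription factors IRF3 and IRF7 and so start transcription of type I interferon. Interferons in turn raise many of the sensors themselves. In β cells this system is known for its response to enteroviruses, and variants of the human gene IFIH1 are associated with type 1 diabetes. ADAR edits adenosine to inosine in double-stranded RNA and thereby keeps the cell's own transcripts from being read as foreign.

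The challenge joined an interferon with IL-1β, and neither was given alone at that dose, so their effects cannot be told apart. As a description of sequence only, the 250 bases before the start of transcription are shown for some members. These are the members whose window holds an interferon-stimulated response element (ISRE) core. RefSeq (build GRCr8) gave a window of 300 bases, from 250 before to 50 after the start, for 5 of the 8 genes, namely Ifih1, Eif2ak2, Mavs, Tbk1 and Tlr3. Dhx58, Zbp1 and Adar had no entry. The ISRE core was searched as GAAANNGAAA on both strands and stood in the windows of Ifih1 and Eif2ak2, 2 of the 5, against 3.92% of 33469 windows of the same length. The sequence of Ifih1 lies at chr3:67683969-67684218 on the minus strand and that of Eif2ak2 at chr6:21940904-21941153 on the plus strand, each printed 5′ to 3′ on the strand of the gene with the ISRE core in capitals.
Ifih1: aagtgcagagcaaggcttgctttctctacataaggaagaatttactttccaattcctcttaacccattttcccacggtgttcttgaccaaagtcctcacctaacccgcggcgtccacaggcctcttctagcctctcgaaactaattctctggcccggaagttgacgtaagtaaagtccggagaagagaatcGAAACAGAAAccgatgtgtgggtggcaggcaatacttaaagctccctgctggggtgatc
Eif2ak2: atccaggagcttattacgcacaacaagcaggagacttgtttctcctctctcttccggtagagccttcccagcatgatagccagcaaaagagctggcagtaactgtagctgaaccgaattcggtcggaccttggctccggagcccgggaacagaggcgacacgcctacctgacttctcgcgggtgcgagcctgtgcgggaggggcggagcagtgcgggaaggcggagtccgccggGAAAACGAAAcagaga
The core of Ifih1 began 59 bases before the start and that of Eif2ak2 began 16 bases before it. Neither a GAS element (TTCNNNGAA, in 8.87% of all windows) nor a κB core (GGGANTTTCC, in 0.362%) was found in any of the 5 windows. Mavs, Tbk1 and Tlr3 held none of the 3 motifs. A match is a run of letters and was not tested as a site. The 2 genes with the core differed in the count data described next: Ifih1 rose with CYT and Eif2ak2 did not pass the test there.

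Total counts were between 15812640 and 20246806 per library. Between replicates of a group the chi-square of the counts was 6.67 to 25.3 per degree of freedom, above sampling noise, and each library was taken as 1 replicate. The β-cell markers were all present, and their summed CPM was 33900 to 40200 in untreated, 29600 to 34500 in IL-1βlow, 11100 to 11300 in CYT and 16500 to 21100 in IL-1βlow + CYT libraries. Of 8 macrophage markers 5 had 3 counts or fewer in every library, among them Ptprc, Itgam and Cd14 at 0 throughout. The others were Adgre1, Csf1r and Cd68. Adgre1 had 0 to 1 counts in untreated, 0 in IL-1βlow, 14 to 36 in CYT and 37 to 58 in IL-1βlow + CYT libraries. In the same order Csf1r had 9 to 13, 1 to 9, 1 to 5 and 21 to 32 counts. Cd68 had 5 to 19, 5 to 16, 17 to 22 and 12 to 18. The summed CPM of the 8 was 1.07 to 1.72 in untreated, 0.859 to 1.05 in IL-1βlow, 2.33 to 3.59 in CYT and 4.44 to 5.77 in IL-1βlow + CYT libraries. Untreated cells also had the α-cell marker Gcg (265 ± 92.6 CPM), the fibroblast marker Pdgfra (14.2 ± 2.07) and the endothelial marker Kdr (10.4 ± 3.63). In every library 3 counts or fewer were found for 2 of 3 α-cell, 2 of 4 endothelial and 1 of 4 fibroblast markers. In bulk samples fewer cells expressing a gene and less RNA per cell cannot be told apart. The part of these markers in the results was not tested. A gene was called with a Benjamini-Hochberg adjusted p under 0.01 in edgeR's quasi-likelihood test over all genes and an absolute log2 fold change above 1 (above 0.6 for IL-1βlow against untreated). Levels are CPM as mean ± SD over 3 libraries. They are not corrected for transcript length and are not compared between genes. Where groups are said to overlap or to lie apart, no share of all genes is given, so this only describes the values.

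CYT raised 3 of the 7 tested genes, Ifih1, Dhx58 and Zbp1, and lowered none. Zbp1 passed the filter through CYT libraries alone, so its call was partly fixed in advance, unlike those of Ifih1 and Dhx58. In this comparison 21.6% of all genes were called, and 10.0% were called higher. With an adjusted p under 0.05 and no fold change minimum, 5 of 7 genes passed (Ifih1, Dhx58, Zbp1 and Adar higher, Mavs lower), where 62.3% of all genes passed. After preconditioning 0 of 7 genes were called between IL-1βlow + CYT and untreated cells. There 5.99% of all genes were called, and Dhx58 and Adar had an unadjusted p under 0.05, as they also had an adjusted p under 0.05, which 21.8% of genes had. IL-1βlow alone called 0 of 7 genes, where 0.433% of all genes were called. In that comparison Eif2ak2 alone had an unadjusted p under 0.05, and none of the 7 had an adjusted p under 0.05, against 1.35% of all genes. DESeq2 and edgeR's exactTest also called 0 members in both comparisons.

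**Figure D1:**
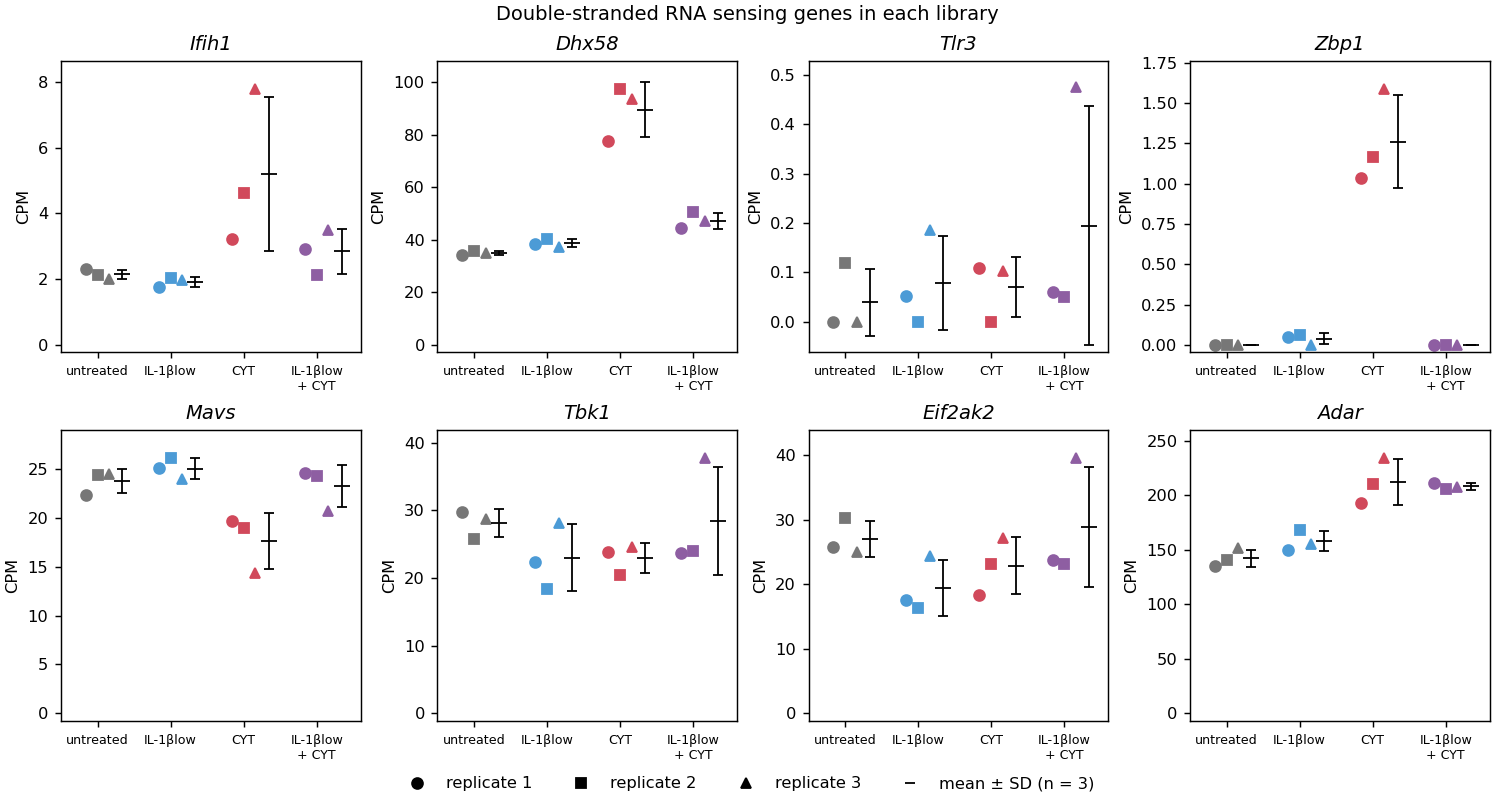
Expression of the 8 genes in each of the 12 libraries. Each panel is 1 gene, the y axis is CPM (linear, each panel on its own scale), colors and x positions are the groups, marker shapes are replicate numbers, and the bar beside each group is its mean ± SD (n = 3). Dhx58 and Zbp1 stand apart in all 3 CYT libraries, Adar is raised in both challenged groups, and Tbk1 and Eif2ak2 each have their highest value in IL-1βlow + CYT replicate 3.

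Dhx58 encodes LGP2, a helicase that binds double-stranded RNA but lacks the signalling domains of its relatives and modulates them. Its CPM was 34.1, 35.7 and 34.8 in untreated replicates 1 to 3 and 38.5, 40.4 and 37.3 in IL-1βlow. It was 77.7, 97.2 and 93.5 in CYT and 44.3, 50.4 and 47.3 in IL-1βlow + CYT. The 4 groups did not overlap, with untreated lowest, then IL-1βlow, IL-1βlow + CYT and CYT. How many of all genes separate in this way is not given, and 62.3% had an adjusted p under 0.05 with CYT. Dhx58 rose with CYT from 34.9 ± 0.808 to 89.5 ± 10.4 CPM, a log2 fold change of 1.36 ± 0.10 (SE, adjusted p = 2.4e-08). IL-1βlow + CYT cells, at 47.3 ± 3.03 CPM, differed from CYT cells by -0.92 on the log2 scale (SE 0.09, adjusted p = 2.8e-06), just short of the fold change minimum, and without CYT replicate 1 the difference was called (-1.04, adjusted p = 1.1e-06). They lay 0.44 above untreated cells (adjusted p = 0.0036), also under the minimum. The first neighbours in the order, IL-1βlow and untreated cells, differed by 0.15 (95% interval -0.05 to 0.36, adjusted p = 0.48), and IL-1βlow + CYT differed from IL-1βlow by 0.29 (0.09 to 0.49, adjusted p = 0.062). With the replicate number as a block in a fit of the latter 2 groups, made after the data were seen, Dhx58 had an adjusted p under 0.05, as 25.9% of all genes had.

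Ifih1 encodes MDA5, the cytoplasmic sensor of long double-stranded RNA. It was scarce, with 32 to 40 counts in each of the 6 libraries without CYT. Its CPM was 2.29, 2.13 and 2.01 in untreated, 1.74, 2.02 and 1.97 in IL-1βlow, 3.21, 4.60 and 7.77 in CYT, and 2.92, 2.14 and 3.51 in IL-1βlow + CYT cells. All CYT libraries lay above the libraries without CYT, but CYT replicate 1 lay below IL-1βlow + CYT replicate 3. The log2 fold change with CYT was 1.28 ± 0.29 (SE, adjusted p = 0.0017). Without CYT replicate 3, the highest library, the difference was 0.89 (adjusted p = 0.009) and was no longer called. The difference between IL-1βlow + CYT and CYT was -0.87 ± 0.29 (adjusted p = 0.02) and was not called, whereas without CYT replicate 1 it was -1.16 (adjusted p = 0.0025) and was called. Differences from untreated cells were -0.17 for IL-1βlow (adjusted p = 0.83) and 0.40 for IL-1βlow + CYT (95% interval -0.25 to 1.06, adjusted p = 0.38), neither detectable at this depth.

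RIG-I, the partner of MDA5 that reads short RNA ends, stands in the table under the symbol Rig1 and was matched through its older symbol Ddx58. Its counts were 315, 313 and 292 in untreated, 374, 284 and 283 in IL-1βlow, 763, 947 and 1700 in CYT, and 471, 653 and 565 in IL-1βlow + CYT cells. It rose with CYT, with a log2 fold change of 1.76 ± 0.20 (adjusted p = 3.3e-06). IL-1βlow + CYT cells differed from CYT cells by -0.96 on the log2 scale (adjusted p = 9e-04), under the fold change minimum, as for Dhx58 and Ifih1. Leaving out 1 library moved it between -1.21 and -0.64, the latter without CYT replicate 3, and it was called without CYT replicate 1, CYT replicate 2 or IL-1βlow + CYT replicate 3. The annotation places another gene of the table over Rig1, and the strand setting of the counting was not given in the sources used here.

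Zbp1 encodes a sensor of left-handed (Z-form) nucleic acid that can start necroptosis through RIPK3 and MLKL. It had 0 counts in all untreated and all IL-1βlow + CYT libraries, 1, 1 and 0 counts in IL-1βlow, and 19, 20 and 31 counts in CYT cells. Reads were thus seen almost only after CYT without preconditioning, at 1.26 ± 0.288 CPM. With 3 counts per library as the limit that a count of 0 allows, the CYT level was at least 7.11-fold higher than in untreated cells and at least 7.42-fold higher than in IL-1βlow + CYT cells. The adjusted p was 4.7e-05 for the first difference and 7e-05 for the second, and both calls held in each of the 6 fits that left out 1 library. Zbp1 was tested only because it was high in CYT libraries, so the filter partly fixed both calls, and they are not independent support. Zbp1 was the 1 member called between IL-1βlow + CYT and CYT cells, where 12.5% of all genes were called, and 5.92% were called lower. With an adjusted p under 0.05 alone the count there was 4 (Zbp1, Dhx58 and Ifih1 lower, Mavs higher), where 50.7% of all genes passed. With the replicate number as a block in a fit of these 2 groups, made after the data were seen, Eif2ak2 and Tbk1 passed as well, where 61.2% of all genes passed.

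Tlr3, the endosomal receptor for double-stranded RNA, was near the limit of detection and was not tested. Its counts were 0, 2 and 0 in untreated, 1, 0 and 3 in IL-1βlow, 2, 0 and 2 in CYT, and 1, 1 and 8 in IL-1βlow + CYT cells. Only IL-1βlow + CYT replicate 3 exceeded 3 counts. A change in Tlr3 was not detectable at this depth, and a gene model of the annotation overlaps it.

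Mavs, the mitochondrial adaptor on which MDA5 and RIG-I converge, moved the other way. Its CPM was 22.3, 24.3 and 24.4 in untreated, 25.0, 26.1 and 23.9 in IL-1βlow, 19.6, 18.9 and 14.4 in CYT, and 24.5, 24.3 and 20.7 in IL-1βlow + CYT cells. The 3 CYT libraries were the lowest of the 12. The difference of CYT from untreated cells was -0.43 ± 0.13 on the log2 scale (adjusted p = 0.0087), and that of IL-1βlow + CYT from CYT was 0.39 ± 0.13 (adjusted p = 0.017). Both were under the fold change minimum. Without CYT replicate 3 the first difference had an adjusted p of 0.062. IL-1βlow + CYT and untreated cells differed by -0.03 (95% interval -0.30 to 0.23). The ratio of Rig1 to Mavs counts within a library, computed after the values were seen and given without a test, was 0.726 to 0.81 in untreated, 0.668 to 0.766 in IL-1βlow, 2.11 to 6.05 in CYT and 1.17 to 1.62 in IL-1βlow + CYT libraries.

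Tbk1 and Eif2ak2 encode the kinases of the system. TBK1 phosphorylates IRF3, and PKR, the product of Eif2ak2, phosphorylates eIF2α on binding double-stranded RNA and so arrests translation. Tbk1 stood at 28.1 ± 2.09 CPM in untreated cells, at 23.0 ± 4.95 in IL-1βlow, at 23.0 ± 2.23 in CYT and at 28.5 ± 8 in IL-1βlow + CYT cells. Eif2ak2 had CPM of 25.7, 30.2 and 25.0 in untreated cells, 17.6, 16.3 and 24.3 in IL-1βlow, 18.3, 23.2 and 27.2 in CYT, and 23.8, 23.1 and 39.5 in IL-1βlow + CYT cells. In IL-1βlow, CYT and IL-1βlow + CYT cells replicate 3 had the highest value of both genes. Neither gene was called in any comparison. Between IL-1βlow and IL-1βlow + CYT cells the library of the same replicate number was higher in IL-1βlow + CYT for all 3 numbers and both genes. The difference was 0.57 for Eif2ak2 (adjusted p = 0.10) and 0.31 for Tbk1 (adjusted p = 0.35). With the replicate number as a block in a fit of these 2 groups, made after the data were seen, it was 0.56 (adjusted p = 0.00056) and 0.31 (adjusted p = 0.028), under the fold change minimum. There 25.9% of all genes had an adjusted p under 0.05, among them 4 members (Dhx58, Eif2ak2, Tbk1 and Adar). With CYT the log2 difference from untreated cells was -0.29 for Tbk1 (95% interval -0.68 to 0.10) and -0.24 for Eif2ak2 (-0.69 to 0.22), intervals that leave out a doubling of either. IL-1βlow + CYT replicate 3 decided the sign of their difference from untreated cells: 0.09 for Eif2ak2 and 0.02 for Tbk1 with it, and -0.21 and -0.23 without it. For Tbk1 the sign also turned without untreated replicate 2 (-0.05). Gene models of the annotation overlap Eif2ak2.

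Adar encodes ADAR1, the adenosine deaminase that edits double-stranded RNA and that has an interferon-inducible long form. Its CPM was 136, 140 and 151 in untreated, 150, 168 and 155 in IL-1βlow, 193, 211 and 234 in CYT, and 211, 205 and 207 in IL-1βlow + CYT cells. Every challenged library lay above every library without CYT, and the CYT and IL-1βlow + CYT groups overlapped. CYT cells lay 0.58 ± 0.08 above untreated cells on the log2 scale (adjusted p = 3.8e-05). IL-1βlow + CYT cells lay 0.55 above untreated (adjusted p = 0.00023) and 0.40 above IL-1βlow cells (adjusted p = 0.0045), all under the fold change minimum. IL-1βlow + CYT differed from CYT by -0.03 (95% interval -0.21 to 0.15, adjusted p = 0.78). Between IL-1βlow + CYT and IL-1βlow cells 0 of 7 members were called, against 3.88% of all genes, DESeq2 and exactTest called 0 as well, and Dhx58, Eif2ak2 and Adar had an unadjusted p under 0.05. Adar was the 1 member with an adjusted p under 0.05 there, which 13.0% of all genes had. With the replicate block in a fit of these 2 groups, Dhx58, Eif2ak2 and Tbk1 had it as well, against 25.9% of all genes.

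**Figure D2:**
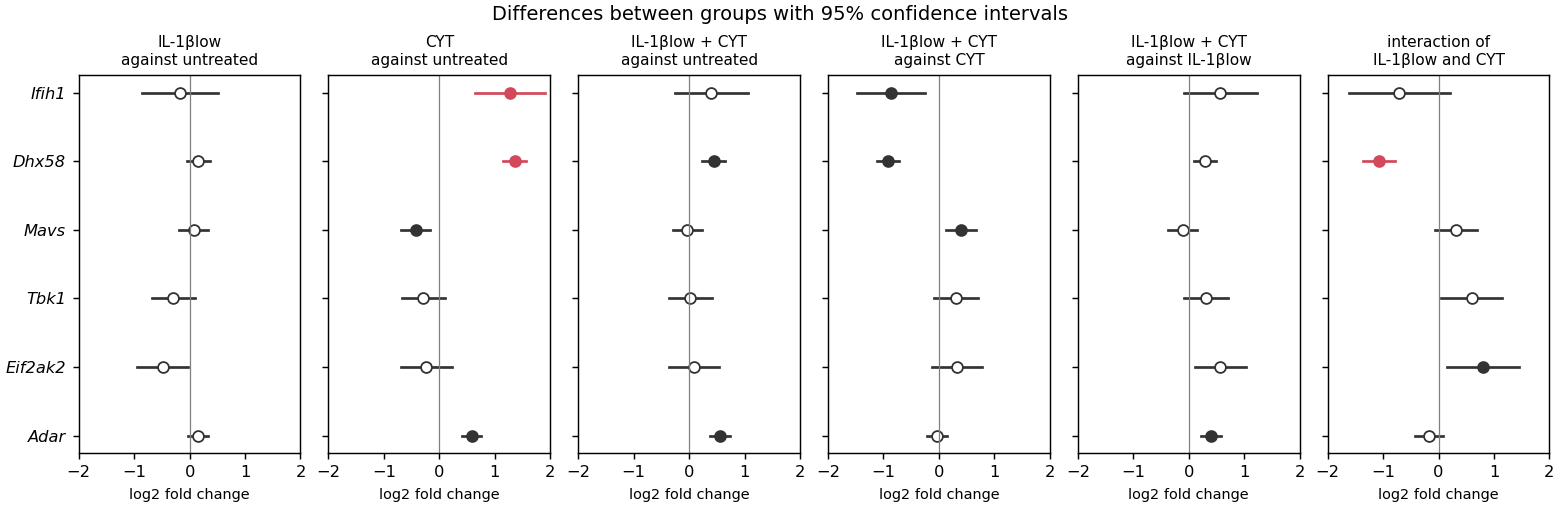
Log2 fold changes of the 6 tested members with counts in every group, with 95% confidence intervals, in 5 comparisons and for the interaction (the CYT effect after preconditioning minus the CYT effect without). Red marks called differences, filled points an adjusted p under 0.05, and open points the rest. Dhx58 and Ifih1 are called with CYT, Adar differs by 0.40 to 0.58 in the comparisons of challenged with unchallenged cells, and the intervals of Tbk1 span 0 in all panels but the interaction.

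The interaction, which asks whether the effect of CYT differed after preconditioning, called 2 of 7 members, Dhx58 and Zbp1, where 10.7% of all genes were called. For Dhx58 it was -1.07 ± 0.13 on the log2 scale (SE, adjusted p = 4.9e-05), so the effect of CYT was smaller after preconditioning, and the call held in all 12 fits that left out 1 library. For Zbp1 the adjusted p was 0.0074, and the call was lost in 9 of 12 such fits. The adjusted p was between 0.0057 and 0.034 over the 12. The value rests on CYT libraries alone, since the other groups had 0 or 1 counts per library. The call held only without IL-1βlow replicate 3, IL-1βlow + CYT replicate 2 or IL-1βlow + CYT replicate 3. With an adjusted p under 0.05 alone 3 members passed (Dhx58, Zbp1 and Eif2ak2), where 37.3% of all genes passed. The third, Eif2ak2, was at 0.81 ± 0.30 (adjusted p = 0.048) and at 0.51 (adjusted p = 0.11) without IL-1βlow + CYT replicate 3. The interaction was -0.71 (95% interval -1.62 to 0.21) for Ifih1, 0.31 (-0.06 to 0.69) for Mavs, 0.60 (0.04 to 1.15, adjusted p = 0.083) for Tbk1 and -0.18 (-0.43 to 0.08) for Adar.

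The share of the CYT response that remained after preconditioning, as the ratio of log2 fold changes over untreated cells, was 32.4% for Dhx58, 31.7% for Ifih1 and 94.7% for Adar. Over the fits without 1 library it was 28.9% to 34.4% for Dhx58 and 80.7% to 103% for Adar. For Ifih1 it was 17.8% without IL-1βlow + CYT replicate 3 and 45.6% without IL-1βlow + CYT replicate 2. The median over the 1439 genes called higher with CYT was 40.1%. Taken over IL-1βlow instead of untreated cells, the shares were 21.3%, 44.7% and 69.0%, and the median was 32.7%. The second share of Ifih1 was 30.9% to 65.0% over those fits. These are descriptions, and the 2 definitions of the share use different controls. The ratio of Dhx58 to Adar counts within a library depends on no normalization and was computed after the values were seen. It was 0.252, 0.255 and 0.23 in untreated, 0.258, 0.24 and 0.24 in IL-1βlow, 0.403, 0.462 and 0.4 in CYT, and 0.21, 0.245 and 0.228 in IL-1βlow + CYT libraries. CYT libraries were the highest, and the 3 other groups overlapped.

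The members differed in which other genes followed their pattern most closely, measured as Pearson's r of log2 CPM over the 12 libraries and given without a test, since all genes share the libraries. For Adar the first was Stat3, a transcription factor of cytokine signalling (r = 0.976), then Amph and Lpin2. For Mavs they were Slc7a4 (0.99), Vamp2, a vesicle fusion protein of secretion, and Miga2. Dhx58 was followed by Flrt1 (0.996), Clip2 and Pitpnm2, and Ifih1 by Rapgef5 (0.961), Utp15 and Katna1. Eif2ak2 was followed by Nup153, a nuclear pore protein (0.963), C1galt1 and Spred1, and Tbk1 by Mfsd8 (0.956), Gmcl1 and Elavl4. For Zbp1, whose pattern rested on the 3 CYT libraries, they were Srsf4 (0.993), Gtpbp2 and Anp32b. The members themselves were left out of this search. Between members the correlation was 0.934 for Dhx58 and Zbp1, 0.857 for Ifih1 and Dhx58, -0.946 for Ifih1 and Mavs, and 0.809 for Tbk1 and Eif2ak2.

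The genes around the 8 members were taken from 10 lists of the pathway and its neighbours, of which 105 genes stood in the table and 86 were tested. CYT raised 21 of the 86 and lowered 5, against 1439 of all 14324 genes called higher (10.0%) and 1657 called lower. The median log2 fold change was 0.14 for the listed genes and -0.04 for all genes. Between IL-1βlow + CYT and CYT cells 3 of the 86 were higher and 15 lower, with medians of -0.08 and 0.02. Of all 14324 genes 937 were called higher there and 848 (5.92%) lower. The interaction called 3 higher (5 without the filter on low counts, and 5 under a replicate block) and 14 lower, against 10.7% of all genes called in either direction. IL-1βlow alone called 0 of the 86, against 0.433% of all genes, although 9 had an unadjusted p under 0.05. Of the 24 members and listed genes raised by CYT, CYT replicate 3 had the highest value for 17 and CYT replicate 1 the lowest for 21. Of the 1439 genes called higher with CYT in all, CYT replicate 3 had the highest value for 594 and CYT replicate 1 the lowest for 894. Ddx60 and Oas1k exceeded the CPM minimum in CYT libraries alone and were tested only because they were high there. Without these 2 the counts were 19 of 84 raised by CYT and 13 of 84 lower in IL-1βlow + CYT than in CYT cells. Ikbke and Oas2 exceeded the minimum only in CYT and IL-1βlow + CYT libraries and remain in these counts. The filter thus partly fixed their calls against untreated cells as well. Without CYT replicate 3 the count raised by CYT was 18, and the count lower in IL-1βlow + CYT than in CYT was 11.

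Downstream of MAVS, related kinases and related factors differed in their response. Ikbke, which encodes IKKε, the inducible relative of TBK1, had 0, 4 and 1 counts in untreated and 4, 0 and 2 in IL-1βlow cells, 284, 197 and 261 in CYT and 168, 237 and 219 in IL-1βlow + CYT cells. CYT raised it (adjusted p = 5.8e-09), and the CYT and IL-1βlow + CYT groups overlapped, with a difference of -0.20 (95% interval -0.70 to 0.30, adjusted p = 0.49). Ikbke passed the filter through challenged libraries alone, so the filter partly fixed its call with CYT. The ratio of Ikbke to Tbk1 counts was 0.0092 or less without CYT, 0.541 to 0.645 in CYT and 0.345 to 0.49 in IL-1βlow + CYT libraries. Irf7, the interferon-inducible of the transcription factors phosphorylated by these kinases, rose from 8.54 ± 0.717 to 105 ± 32.5 CPM with CYT (log2 fold change 3.62, adjusted p = 2.2e-09). In IL-1βlow + CYT cells it stood at 13.1 ± 1.44 CPM (-2.99 against CYT, adjusted p = 4.9e-08). Irf3, the constitutive one, stood at 18.8 ± 3.04 CPM in untreated cells and at 16.8 ± 1.44 in CYT cells (-0.16, 95% interval -0.48 to 0.16). Of the 12 tested genes of this list CYT raised 6, against 10.0% of all genes, the others being the TBK1 adaptor Tbkbp1, the ubiquitin ligase Traf2, the autophagy receptor Optn and Irf5. Of the 12, 4 were lower in IL-1βlow + CYT than in CYT cells (Traf2, Optn, Irf5 and Irf7), where 5.92% of all genes were called lower. These 4 were also called higher with CYT, and the same CYT libraries serve in both comparisons. The call of Irf5 (-1.04) was lost without CYT replicate 2 (-0.93).

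The oligoadenylate synthetases make a short nucleotide messenger on contact with double-stranded RNA, and 5 of 7 tested genes of this list rose with CYT, against 10.0% of all genes, while Oas1f fell. Oas1a went from 1.94 ± 0.43 to 41.2 ± 12.3 CPM with CYT (log2 fold change 4.41, adjusted p = 6e-09) and was at 6.18 ± 1.62 in IL-1βlow + CYT cells (-2.73 against CYT, adjusted p = 6.4e-07). Oas2 had 0 to 2 counts in libraries without CYT, 222, 225 and 405 in CYT, and 11, 43 and 45 in IL-1βlow + CYT cells (-3.05 against CYT, adjusted p = 1.3e-05). It passed the filter through challenged libraries alone, so the filter partly fixed its call with CYT. Oas1b, Oasl2 and Oas1k also rose with CYT. All 5 were lower in IL-1βlow + CYT than in CYT cells, where 5.92% of all genes were called lower. The same CYT libraries serve in both comparisons. The call of Oasl2 in the second comparison (-1.12) was lost without CYT replicate 3 (-0.81). Oas1k, which passed the filter through CYT libraries alone, had 0 counts in untreated and 6, 18 and 23 in CYT cells, at least 4.8-fold higher. Oas1f fell with CYT (-1.26, adjusted p = 0.00019) and was higher in IL-1βlow + CYT than in CYT cells (1.37, adjusted p = 0.00014). The Oas1 genes are close copies of each other, and reads may be shared among them in the counting.

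**Figure D3:**
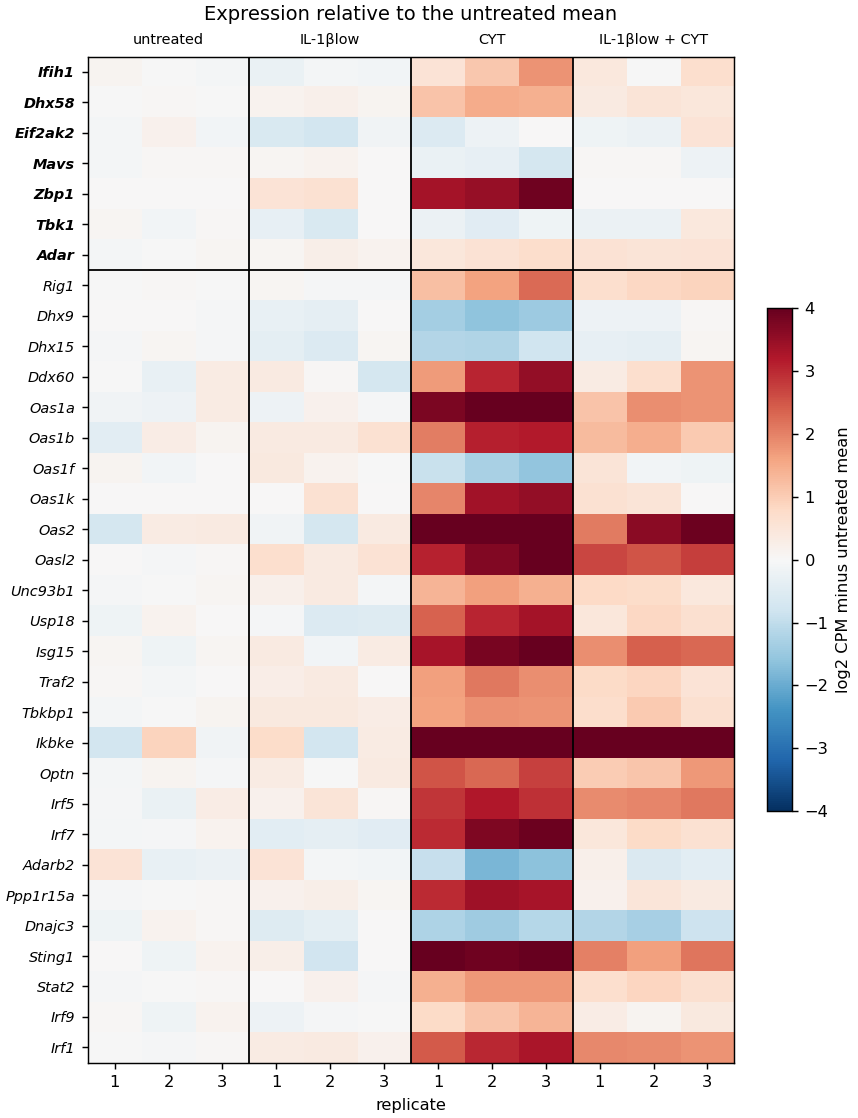
Log2 CPM of the 7 tested members (bold, above the line) and of the listed genes called with CYT in each library, minus the mean of the 3 untreated libraries. Rows are genes, columns are libraries by group and replicate, red is higher and blue lower than untreated, and the color scale ends at 4 in both directions. Ikbke is past the end of the scale in both challenged groups, whereas Irf7, Sting1 and Ppp1r15a are paler after preconditioning.

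Among 16 tested RNA helicases and RNA-binding proteins CYT raised Rig1 and Ddx60, a share near the 10.0% of all genes. It lowered Dhx9 and Dhx15, where 1657 of all 14324 genes were called lower. Ddx60, a helicase linked to RIG-I signalling that passed the filter through CYT libraries alone, had 2 to 4 counts in untreated, 15, 39 and 62 in CYT and 4, 7 and 15 in IL-1βlow + CYT cells. Dhx9, a helicase that unwinds double-stranded RNA, fell from 187 ± 5.25 to 67.3 ± 6.19 CPM (-1.47, adjusted p = 4.5e-08) and was at 172 ± 17.0 in IL-1βlow + CYT cells (1.35 against CYT, adjusted p = 3.8e-07). Dhx15 fell by 1.05 on the log2 scale (adjusted p = 7e-05), just past the minimum, and its call was lost without CYT replicate 1 (-0.95), without CYT or untreated replicate 2 (-0.98 each) and with no filter (-0.98). Of 19 ubiquitin ligases and regulators of these receptors, again a share near that of all genes, Isg15 and Usp18 rose with CYT (3.79 and 2.97 on the log2 scale) and were lower in IL-1βlow + CYT than in CYT cells (-1.53 and -2.31). Trim25, a ligase of this list, was 0.48 higher with CYT (adjusted p = 0.0024, under the fold change minimum).

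The effectors and the neighbouring pathways varied. Among the 8 tested genes of eIF2α phosphorylation, the other kinases Eif2ak1 (0.38), Eif2ak3 (0.49) and Eif2ak4 (-0.16) were not called with CYT. Ppp1r15a, which directs the phosphatase to eIF2α, rose from 29.2 ± 1.07 to 274 ± 39.7 CPM (3.23, adjusted p = 3.5e-11) and was at 37.2 ± 4 in IL-1βlow + CYT cells. Dnajc3, an inhibitor of PKR and a chaperone of the endoplasmic reticulum, fell with CYT by 1.27 on the log2 scale (adjusted p = 6.9e-06). The other listed genes of the ADAR family did not follow Adar: Adarb1 was at 0.11 (95% interval -0.11 to 0.33) and Adarb2 fell by 1.48 on the log2 scale (adjusted p = 7e-04). Of the Zbp1 partners, Ripk3 had 3 counts or fewer in every library, and Mlkl stood at 7.60 ± 1.20 CPM in untreated cells, at 8.22 ± 0.483 in CYT cells and at 13.7 ± 1.06 in IL-1βlow + CYT cells (0.74 against CYT, adjusted p = 0.0011, under the minimum).

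In the endosomal branch Tlr7 and Tlr8 did not pass the filter, the TLR3 adaptor Ticam1 differed from untreated cells by -0.63 with CYT (adjusted p = 0.0039, under the fold change minimum), and Unc93b1, the chaperone that carries these receptors to endosomes, rose (1.48, adjusted p = 2.8e-07). In the list for DNA sensing Sting1, the adaptor of cytoplasmic DNA, rose from 2.62 ± 0.305 to 50.9 ± 10.3 CPM (4.28, adjusted p = 1.8e-09) and was at 10.4 ± 1.83 in IL-1βlow + CYT cells, while its partner Cgas had 4 counts or fewer in every library. Ifnb1, the interferon that this system produces, had 1 count in all 12 libraries together, in CYT replicate 3, and Ifna1, Ifna2, Ifna4 and Ifng did not pass the filter. The interferon signalling factors Stat2 (1.64), Irf9 (1.10) and Irf1 (2.96) rose with CYT. In IL-1βlow + CYT against CYT cells Irf1 fell by 1.10 on the log2 scale and was called, although not without CYT replicate 3 (-0.93), and Stat2 (-0.92) and Irf9 (-0.84) were under the minimum.

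**Figure D4:**
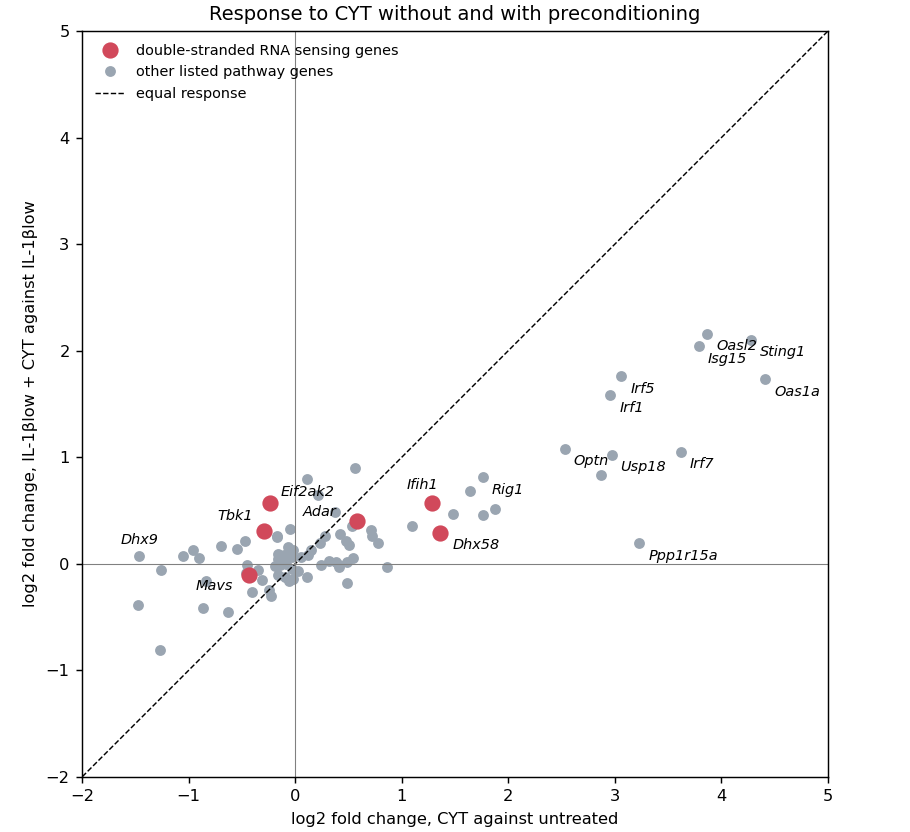
Log2 fold change with CYT in cells without preconditioning (x axis, CYT against untreated) and with it (y axis, IL-1βlow + CYT against IL-1βlow), from libraries that the axes do not share. Each of the 88 points is 1 gene, red for the 6 tested members with counts in every group and grey for other listed genes, and the dashed line marks equal responses. Dhx58 and Ifih1 lie below the line, Adar (0.58 and 0.40) lies closer to it, and Mavs, Tbk1 and Eif2ak2 lie above it. Among the genes drawn, the listed genes with the largest responses on the x axis lie below it. Zbp1, Oas1k, Oas2, Ikbke and Ddx60, which had few counts without CYT, are not drawn. Ikbke rose in both challenged groups, and its interaction was -0.41 (-1.97 to 0.39 over fits without 1 library).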

How the data were processed

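RNA of the 12 INS-1E libraries was sequenced from TruSeq libraries. Read quality was examined in FastQC, and rfastp removed adapters and poor reads. Rsubread served for the alignment to mRatBN7.2 and featureCounts for the counting in R 4.3.3, and the authors deposited raw counts per gene symbol. The strand setting was not given in the sources used here. All 12 columns were matched to the labels by library name.

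The counts were analysed with edgeR 4.0.16 in R 4.3.3: CPM above 1 in at least 2 libraries, TMM factors, and 1 quasi-likelihood fit over all 12 libraries (8 residual degrees of freedom, common biological coefficient of variation 0.123), with Benjamini-Hochberg adjustment over 14324 genes. Intervals are 95%. P-values measure the spread between the labelled biological replicates. Depth was 15812640 to 20246806 counts, and limits at 0 (3 counts per library) cover counting error only. The study's own test, edgeR's exactTest, was an alternative, as were DESeq2 1.42.0, RLE factors, no filter, the 2 groups alone, a replicate block, other thresholds and leaving out each library. The labels give replicate numbers without saying what they share. Deviations from the group means of same-numbered libraries correlated over 0.1 in all 3 pairs for IL-1βlow + CYT with CYT (0.116 to 0.475) and with IL-1βlow (0.179 to 0.52). With untreated cells 1 or 2 of 3 pairs did. In the 2 comparisons of IL-1βlow + CYT with CYT and with IL-1βlow the numbers were also taken as pairs, in an added fit with a replicate block. Their p-values come from the fit without a block unless a block is named. With the block, 6 and 4 members had an adjusted p under 0.05, against 61.2% and 25.9% of all genes. The scripts were tested on simulated data.

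The members and gene lists were chosen with earlier results of these data known. Named genes are the 8 members, the 3 genes closest to each tested member by correlation, and genes of the lists that passed a test or have a direct role in the pathway, of which not all are given; some genes of the pathway are not reported here. Promoter windows and gene overlaps come from RefSeq (GRCr8), and positions in mRatBN7.2 were not used.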

Additional observations from a re-analysis of the deposited data

Results flagged for a closer look

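The effect of CYT differed with preconditioning, by the interaction in edgeR's quasi-likelihood test, for 2 of the 7 tested members and for listed genes around them. The same test called 10.7% of all genes, and of the 86 listed genes it called 3 higher and 14 lower. Values are the log2 effect of CYT after preconditioning minus the effect without. For Dhx58 the value was -1.07. For Zbp1 the adjusted p was 0.0074. It passed the filter on low counts through CYT libraries alone, the other groups had 0 or 1 counts per library, and the call was lost in 9 of 12 fits that left out 1 library.

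Of the transcription factors and TBK1 partners, Irf7 was at -2.57, Irf5 at -1.30, Irf1 at -1.38, Traf2 at -1.37, Tbkbp1 at -1.30 and Optn at -1.46. Of the oligoadenylate synthetases Oas1a was at -2.69, Oas1b at -2.03 and Oasl2 at -1.71, whereas Oas1f was at 1.20. The call of Oas1f was lost in 8 of 17 alternatives, all of them leaving out 1 library (0.91 to 1.37 over such fits, adjusted p up to 0.02), and that of Oasl2 was lost without IL-1βlow replicate 1 or untreated replicate 2 (adjusted p 0.012 and 0.011). The ubiquitin-like modifier Isg15 was at -1.75 and its protease Usp18 at -1.95. Sting1 was at -2.18, Unc93b1 at -1 and Ppp1r15a at -3.04, the largest in size of those named here. The helicases Dhx9 (1.55) and Dhx15 (1.12), which CYT lowered, had positive values. Unc93b1 sat at the fold change minimum, and its call was lost in 4 of 17 alternatives, namely under a replicate block and without IL-1βlow replicate 2, CYT replicate 2 or IL-1βlow + CYT replicate 3 (-1.11 to -0.90 over the fits without 1 library). The call of Dhx15 was lost without IL-1βlow replicate 2 (0.97) or IL-1βlow + CYT replicate 3 (0.96).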

How the results depend on the processing

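The number of members called was 0 for IL-1βlow, 3 for CYT and 0 for IL-1βlow + CYT against untreated cells, 1 and 0 for IL-1βlow + CYT against CYT and IL-1βlow, and 2 for the interaction. It was within 1.5 times of these under RLE factors, no filter and DESeq2, and, for the 5 comparisons of 2 groups, under the 2 groups alone and exactTest, which were not run for the interaction. With an adjusted p under 0.05 and no fold change minimum it was 5 for CYT and 2 for IL-1βlow + CYT against untreated cells, and 4 and 1 for IL-1βlow + CYT against CYT and IL-1βlow. Leaving out 1 library gave 2 to 3 for CYT against untreated cells, 1 to 3 for IL-1βlow + CYT against CYT and 1 to 2 for the interaction. Listed genes called higher and lower, computed after the data were seen, were 38 and 17 for CYT against untreated cells, 12 and 33 for IL-1βlow + CYT against CYT, and 9 and 26 for the interaction at an adjusted p under 0.05 alone, where 62.3%, 50.7% and 37.3% of all genes passed in either direction. The interaction called 3 listed genes higher, 5 with no filter, 5 under a replicate block and 1 to 4 without 1 library, with 1 when IL-1βlow replicate 2 was left out.

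Under a replicate block, members called were 0, 3, 0, 1, 0 and 2, as without it, and 3246 genes were called for CYT against untreated cells in place of 3096, and 141 in place of 62 for IL-1βlow against untreated cells. Where the numbers pair the libraries, a block in the 2 groups alone, added after the data were seen, gave 1 and 0 members called for IL-1βlow + CYT against CYT and IL-1βlow, as without it. It raised the members with an adjusted p under 0.05 from 4 to 6 and from 1 to 4, with 61.2% and 25.9% of all genes. In the comparisons with untreated cells the numbers did not pair the libraries, and 9 of 12 libraries matched best with their own number. For IL-1βlow against untreated cells the count over all genes was also 229 with no filter, 197 with exactTest, 139 with DESeq2, and 16 to 74 without 1 library.

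Signs turned only for differences that were not called. For IL-1βlow + CYT against untreated cells Mavs (-0.03) was at 0.01 with no filter. Over fits without 1 library Mavs was at -0.10 to 0.04, Eif2ak2 at -0.21 to 0.23 and Tbk1 at -0.23 to 0.13. For IL-1βlow + CYT against CYT, Adar was at -0.13 to 0.02, Irf3 at -0.05 to 0.11 and Traf3 at -0.02 to 0.06. The interaction of Ikbke was at -1.97 to 0.39. The cause was not tested. Depth limits Tlr3, Zbp1 and Ifih1.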
